A study of Mus musculus with 2 samples.

Results

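The spots described here were regions of a control mouse lung whose counts were rich in cardiac muscle genes. In a Visium section each spot is a small area of tissue that can hold several cells of different types, so the values describe areas and not single cells. Among the 1861 spots of the control section with at least 1000 counts, the 50 with the highest summed level of Myl7, Myh6, Sln, Csrp3, Mb and Myl4 were called cardiac-type, and the 962 spots with fewer than 3 counts of these 6 genes together were the reference. The remaining 849 spots entered neither group, 27 further spots over tissue fell below 1000 counts, and the series held 2998 spots in all. The 6 genes encode the atrial light chains (Myl7, Myl4) and the alpha heavy chain of cardiac myosin (Myh6), sarcolipin, which restrains the calcium pump (Sln), a Z-disc LIM protein (Csrp3) and myoglobin (Mb).

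The series held 2 fresh-frozen lung sections, 1 control (no treatment) and 1 with metastases. Both lungs came from female Balb/c mice, and the metastases arose from 4T1 mammary gland tumour cells placed in the mammary fat pad at 6 to 8 weeks of age, with lungs taken 21 to 23 days later. The labels give no separate age for the control mouse, and each condition was 1 section, so spots were not replicates. Because the spots were chosen by the measured counts of these genes, every level and fold below is a description without a test, and intervals cover counting error only.

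The walls of the large veins of the mouse lung carry a sleeve of cardiac muscle that continues from the left atrium. Its myocytes are striated, burn mainly fatty acids in densely packed mitochondria, and conduct the atrial impulse. The pulmonary vein myocardium is a known origin of ectopic atrial beats.

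The regulatory sequence next to 5 of the described genes is shown because their summed levels were far above the reference while their roles differ. Myl7 is a contractile gene, Mybphl and Nppa are used as atrial markers, Pln encodes the phospholamban brake on the calcium pump, and Hamp encodes the iron hormone hepcidin. Each line holds the 250 bases before the RefSeq transcription start on GRCm38.p6, written 5′ to 3′ on the gene's strand. Capitals mark every match on either strand to the CArG box, the MEF2 motif, the GATA core GATAA, the T-box core AGGTGT or the NKX2-5 core TNAAGTG. The positions are chr11:5898783-5899032 (minus strand) for Myl7, chr3:108364661-108364910 (plus strand) for Mybphl, chr10:53337436-53337685 (plus strand) for Pln, chr4:148000472-148000721 (plus strand) for Nppa and chr7:30944030-30944279 (minus strand) for Hamp.
Myl7: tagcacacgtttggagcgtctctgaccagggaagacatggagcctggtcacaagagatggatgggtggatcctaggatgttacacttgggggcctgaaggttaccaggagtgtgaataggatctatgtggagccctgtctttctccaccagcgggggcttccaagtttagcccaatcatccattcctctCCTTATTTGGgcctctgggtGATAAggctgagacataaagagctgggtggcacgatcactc
Mybphl: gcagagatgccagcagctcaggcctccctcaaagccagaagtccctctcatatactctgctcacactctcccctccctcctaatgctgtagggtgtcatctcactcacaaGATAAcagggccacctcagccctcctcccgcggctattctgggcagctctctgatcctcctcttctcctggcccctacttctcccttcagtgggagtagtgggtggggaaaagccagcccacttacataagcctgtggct
Pln: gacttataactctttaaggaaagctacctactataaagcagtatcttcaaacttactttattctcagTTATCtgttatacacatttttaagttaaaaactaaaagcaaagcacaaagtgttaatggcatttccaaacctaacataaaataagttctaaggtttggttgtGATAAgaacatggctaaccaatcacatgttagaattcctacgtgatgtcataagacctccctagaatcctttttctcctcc
Nppa: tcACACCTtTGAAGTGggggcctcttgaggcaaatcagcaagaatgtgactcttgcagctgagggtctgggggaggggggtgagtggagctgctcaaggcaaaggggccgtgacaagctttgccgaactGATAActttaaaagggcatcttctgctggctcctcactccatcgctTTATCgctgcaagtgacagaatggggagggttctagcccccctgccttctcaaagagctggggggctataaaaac
Hamp: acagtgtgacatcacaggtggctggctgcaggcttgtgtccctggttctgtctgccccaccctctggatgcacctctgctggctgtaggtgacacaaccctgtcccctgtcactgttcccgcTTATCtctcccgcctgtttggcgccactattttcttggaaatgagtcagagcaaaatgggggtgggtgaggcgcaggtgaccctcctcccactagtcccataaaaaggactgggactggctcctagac
In the Myl7 sequence a CArG box, the motif bound by serum response factor, began 61 bases before the start and was followed by GATAA, the core of GATA factor sites. Mybphl and Hamp each held GATAA at 1 place, on opposite strands, and Pln and Nppa held it at 2 places. Nppa also held AGGTGT, a T-box core, and TNAAGTG, the core bound by NKX2-5, next to each other near the far end of the window. The CArG box occurred in 1.47% of the 32851 promoters of the RefSeq table, in 1.24% of the 5584 promoters of the genes compared below, in 1.12% of the 358 promoters of genes at least 2-fold higher in cardiac-type spots, and in 3 of the 29 promoters of genes at least 16-fold higher. GATAA occurred in 22.6%, 13.5%, 17.6% and 37.9% of the same 4 groups, and TNAAGTG in 10.1%, 7.22%, 5.03% and 0%. AGGTGT stood at 11.8%, 9.06%, 8.66% and 6.90%, TATAAA at 12.4%, 6.32%, 7.54% and 3.45%, and the MEF2 motif, which can overlap TATAAA, at 2.92%, 1.41%, 2.51% and 10.3%. These are matches of letters in a short window, in few promoters for the high genes, and not measured binding. The first group counted every promoter of the table, also where a gene had several. The other groups took the first listed promoter of each gene and left out genes without an entry.

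The control section held 20329126 counts over 1888 spots and the metastatic section 14657881 over 1110 spots. The cardiac-type spots held 659623 counts, between 3057 and 23991 per spot with a median of 13175, and the reference spots 9561648 counts with a median of 8493. Cardiac-type spots were thus deeper, and the airway secretory gene Scgb1a1 took 3.07% of their counts against 20.5% in the reference. With all counts thinned to 1000 per spot the list ratios below moved as given in the closing section.

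The levels of the 6 chosen genes follow from the rule and describe the spots. Their summed level was 557 counts per 10000 in the cardiac-type spots together, and 0.773 in the reference. Single spots ran from 870 through a median of 504 to 388 for the last spot inside the limit, while the first outside stood at 381 and the hundredth at 115. The limit therefore cut through a continuous range. Each chosen spot held 120 to 1543 counts of the 6 genes, and the 50 spots held 61.7% of all their counts in the section. Myl7 lay between 86.6 and 289 counts per 10000 across the spots (median 176), Myh6 between 63.5 and 191 (median 109) and Myl4 between 89.1 and 236 (median 138). Every chosen spot had counts of all 6 genes. Mb was more uneven, from 2.77 to 69.4 with a median of 19.6, and Sln ran from 14.1 to 105 with a median of 45.3.

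The spots did not form a single structure. They made 16 groups of touching spots, called patches here, of which 8 were lone spots and 8 held 3 to 11 spots. Of the 50 spots, 42 (84%) touched another cardiac-type spot among their 6 nearest array positions. The 3 largest patches, with 11, 8 and 5 spots, held 24 spots between them. The patches lay over 3.3 by 2.34 mm of a tissue area of 5.65 by 5.37 mm. The longest, patch 1, spanned 458 µm between spot centers, and patch 5 lay 1044 µm from its nearest cardiac-type spot outside it. Cardiac-type spots were at the tissue edge about as often as others, 13 of 50 (26%) against 26.9% of the other 1811 spots. Only 1 of the 50 spots (2%) was among the 10% of spots richest in airway genes, against 10.2% of the others, although the median distance to such a spot was 265 µm against 300 µm. Of the 50, 8 (16%) were among the 10% richest in smooth muscle genes, against 9.83% of the others.

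**Figure D1:**
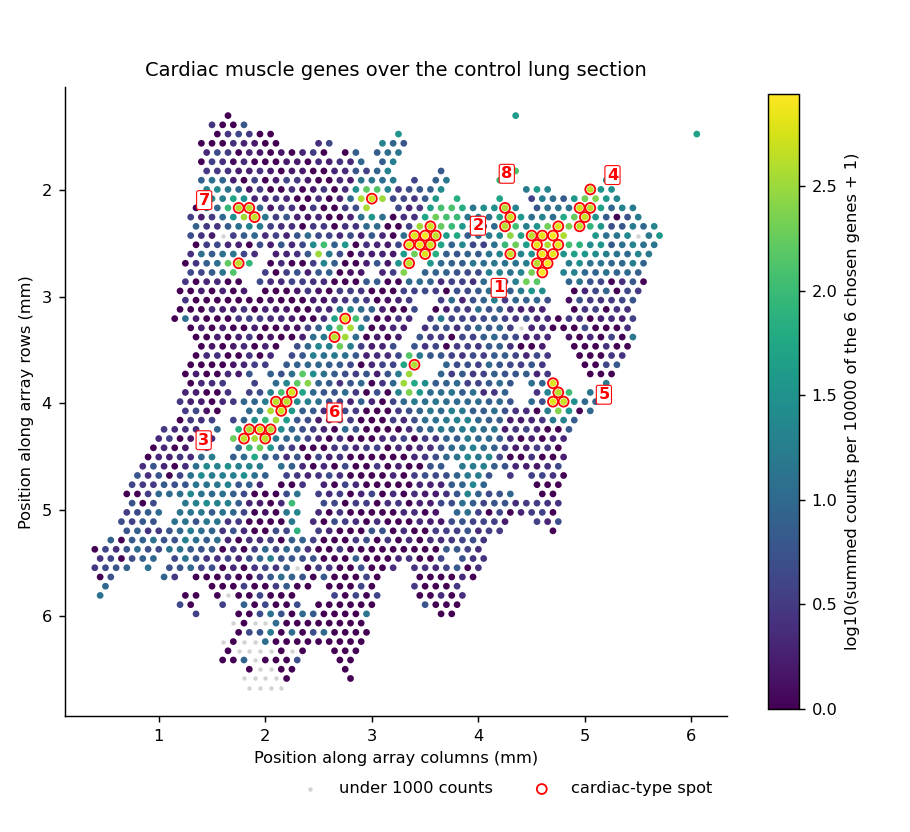
Position of each control spot on the array (both axes in mm), colored by log10 of the summed counts per 10000 of the 6 chosen genes plus 1. Red rings mark the 50 cardiac-type spots and numbers the 8 patches of at least 3 spots; patches 1, 2, 4 and 8 lie in the upper right and patches 3 and 6 in the lower left, with spots of intermediate level around them.

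Outside the 6 chosen genes, the genes most raised in the cardiac-type spots were those of the sarcomere, calcium cycling and muscle-type energy metabolism. Of 7002 genes with at least 200 counts over both groups, 449 (6.41%) were at least 2-fold higher in the cardiac-type spots, 198 at least 4-fold and 35 at least 16-fold. A further 1202 genes (17.2%) were at least 2-fold lower and 101 at least 4-fold lower, and the median log2 ratio over all 7002 was -0.35. Of the 449, 65 reached the 200 counts only through the cardiac-type spots, as did 49 of the 198 and 26 of the 35, so these had to differ. Because the reference was chosen for few counts of cardiac genes, folds of genes that share cells with them are set in part by the choice.

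The 15 genes with the highest ratios, by the rule for named genes, all reached 200 counts only through the cardiac-type spots, and genes with fewer counts were not ranked. Among the 15 the highest ratio belonged to Smpx, a small muscle protein, with 206 counts in 48 of the 50 spots against 3 counts in the 962 reference spots, a 995-fold difference (95% interval 336 to 4866). Hamp followed with 725 against 17 counts (618-fold, 383 to 1067). Hepcidin is best known from liver, where it lowers iron export, and is also made in heart. Its near-identical copy Hamp2 had 15 counts in the cardiac-type spots and 0 in the reference, so the split between the copies is uncertain. Also among the 15 highest were Pln (446-fold), the mitochondrial creatine kinase Ckmt2 (445-fold), the translation factor Eef1a2 of muscle and nerve (429-fold), the muscle phosphoglycerate mutase Pgam2 (390-fold), Mybphl (374-fold), Actn2 (338-fold) and Cox6a2 (332-fold). Tnni3, Myl3, Tnnt2 and Ttn were in the same group, at 287, 287, 269 and 247-fold.

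The lowest ratios were of genes with few or no counts in the cardiac-type spots. Cldn10, a claudin of tight junctions, had 0 counts against 373, at least 8.58-fold lower by a floor of 3 counts over the 50 spots. Meig1 had 1 count against 253, a ratio of 0.0573 (95% interval 0.00144 to 0.322). Ighd, the heavy chain of IgD, and Tmem178, Stk33 and Traf3 had 1 count each against 231, 229, 202 and 201. Ms4a4d, Gimap3 and the endothelial lipase Lipg had 2 counts each against 282, 275 and 269, and the diacylglycerol kinase gene Dgkh 3 against 393. With so few counts their order has no meaning.

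The sarcomere list was higher in sum in all its compartments. Of 30 genes 21 passed the count minimum, 20 were at least 2-fold higher and 0 lower, against 6.41% and 17.2% over all genes, but 12 of the 20 passed only through the cardiac-type spots. The summed level was 366 against 12.9 counts per 10000 (28.5-fold, 27.8 to 29.1). In the thick filament and M-band, which hold myosin and titin, the ratio was 170 (145 to 199), and all 5 genes that passed the minimum did so only through the cardiac-type spots. Ttn, the giant spring of the sarcomere, ranged from 2.48 to 15.8 counts per 10000 across the 50 spots with a median of 6.41, and was 0.0282 in the reference. Mybpc3, which tunes cross-bridge cycling, was 203-fold higher, and the M-band genes Myom1 and Myom2 17.5-fold and 467-fold. The light chain kinase gene Mylk3 was 84.1-fold higher, and Myh7b, an ancient myosin, had 2 counts in each group (14.5-fold, 1.05 to 200).

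In the thin filament, which carries actin and its calcium switch, 6 of 7 tested genes were higher, against 6.41% over all genes. Of the 6, 3 passed only through the cardiac-type spots, and the sum was 44.9-fold (43.4 to 46.4). The cardiac troponin T gene Tnnt2 lay between 28.3 and 77.0 counts per 10000 in every cardiac-type spot (median 50.0) and at 0.191 in the reference. Troponin I of adult heart, Tnni3, ran from 24.3 to 78.7 (median 40.4), and troponin C, Tnnc1, was 208-fold higher. These 3 subunits had counts in all 50 spots. The slow skeletal and fetal troponin I, Tnni1, had 1 count in each group (14.5-fold, 0.185 to 1138). Cardiac alpha actin Actc1 was at 46.8 against 1.04 (44.9-fold), while its skeletal counterpart Acta1 had 11 against 1 count, and reads that both share leave their split uncertain. The tropomyosin gene Tpm1 was at 53.4 against 2.36 (22.6-fold, 21.4 to 23.8) and the filament cap gene Tmod1 4.58-fold higher (3.77 to 5.53). Nebl, a nebulin relative, was the tested exception at 1.39-fold (0.98 to 1.91), and the filament elongation gene Lmod2 had 31 counts against 0, at least 149.8-fold higher.

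At the Z-disc, where thin filaments are anchored, 9 of 9 tested genes were higher, against 6.41% over all genes. Of the 9, 4 passed only through the cardiac-type spots, and the sum was 15.3-fold (14.9 to 15.8). The titin cap gene Tcap lay between 30.2 and 101 counts per 10000 (median 56.9) against 0.425 in the reference, and Actn2, the cross-linking alpha-actinin, between 1.35 and 15.7 (median 7.22) against 0.0230. The PDZ and LIM gene Ldb3 was 158-fold higher, Myoz2, which binds calcineurin, 393-fold, Pdlim5 4.71-fold, Nexn 6.32-fold, the filamin gene Flnc 14.8-fold, and Synpo2l had 51 counts against 9. All of these are anchoring proteins. The stress-responsive Ankrd1 was 13.2-fold higher (11.6 to 15.1), the chaperone gene Cryab 6.96-fold and Des, the muscle intermediate filament, 3.25-fold. Cryab and Des are also made outside cardiac muscle, and Des was lower than in the 50 reference spots richest in smooth muscle genes (0.633-fold, 0.555 to 0.722).

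Genes of the calcium cycle were higher together, at 76.3 against 4.35 counts per 10000 (17.5-fold, 16.8 to 18.3). Of 6 tested genes 5 were higher and 0 lower, against 6.41% and 17.2% over all genes. Of the 5, 1 passed only through the cardiac-type spots. The pump gene Atp2a2 was at 22.2 to 68.8 across the spots (median 44.1) against 1.02 (44.2-fold, 41.1 to 47.6). Both of its small inhibitors were present in every spot, with Sln among the chosen genes and Pln at 1.52 to 22.9 (median 8.55). Of the release side, the ryanodine receptor gene Ryr2 was 73.7-fold higher (46.9 to 121), the store protein gene Casq2 182-fold and the luminal calcium-binding gene Hrc 231-fold. Trdn, which ties the receptor to the store, had 60 counts against 0, at least 289.9-fold higher. Srl, a protein of the reticulum lumen, had 124 counts against 7, Jph2, which joins the reticulum to the surface membrane, was 9.10-fold higher (7.34 to 11.2) and S100a1, a calcium sensor, 4.07-fold (3.71 to 4.46). Of the surface transporters, the sodium-calcium exchanger gene Slc8a1 had 35 counts against 100 (5.07-fold, 3.35 to 7.52). The calcium channel gene Cacna1c had 28 counts against 248 and was 1.64-fold higher (1.07 to 2.42), its partner Cacnb2 had 12 against 41, Asph 46 against 292 and Fkbp1b 5 against 72.

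Genes of the intercalated disc, through which myocytes couple, were 2.44-fold higher in sum (2.28 to 2.61). Of 7 tested genes 4 were higher, against 6.41% over all genes, and 1 of the 4 passed only through the cardiac-type spots. The gap junction genes Gja1 and Gja5 were at 1.32 and 1.14 counts per 10000, 6.53-fold and 3.25-fold the reference, and Popdc2, which binds cAMP, was 20.6-fold higher. The desmoplakin gene Dsp was 7.23-fold higher (6.01 to 8.67) and Tmem65 1.35-fold. The plakoglobin gene Jup, shared with epithelia, was lower at 0.633-fold (0.541 to 0.737).

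Identity of the muscle was read from lists of atrial, ventricular and pacemaker genes, in which the chosen Myl7, Sln, Myl4 and Myh6 were not counted. The atrial list was at 24.6 against 3.99 counts per 10000 (6.17-fold, 5.82 to 6.54). Of its 6 tested genes 4 were higher and 0 lower, against 6.41% and 17.2% over all genes. Of the 4, 1 passed only through the cardiac-type spots. Mybphl carried 594 of its 1625 counts, ranged from 2.45 to 17.5 across the 50 spots (median 8.40), and was at 0.0241 in the reference. Without Mybphl the list was 3.94-fold higher (3.67 to 4.22). Pam, the enzyme that amidates peptides and lies in atrial granules, was 5.78-fold higher (5.07 to 6.57) and the lipid transfer gene Stard10 5.45-fold (4.78 to 6.20). Both are also made in other lung cells. The atrial potassium channel genes Kcnj3 and Kcnj5, which answer to acetylcholine, had 48 and 28 counts against 2 and 3, and the channel partner Fgf12 had 52 against 8.

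Other atrial genes were rare or no higher than the reference. Nppa, the atrial natriuretic peptide, was rare but higher, with 62 counts against 5 in the reference (180-fold, 73.0 to 573). It had counts in 15 of the 50 spots, with a median of 0 and a highest spot of 15.6 counts per 10000. Of its 62 counts, 50 were in patch 1 and 8 in patch 8. Its processing enzyme gene Corin had 23 counts in 16 spots against 1 count, the ventricular and stress-linked Nppb 0 against 1, and the receptor genes Npr1 and Npr3 were at 0.485-fold (0.302 to 0.740) and 0.790-fold (0.426 to 1.35). The protease gene Furin was at 0.712-fold (0.507 to 0.974). Bmp10, a ligand of adult right atrium, had 0 counts in both groups, and a count of 0 in the 50 spots allows a level of up to 0.0455 counts per 10000 by the floor of 3 counts, or 0.0559 by the exact Poisson limit. Kcna5, a potassium channel gene, had 3 counts against 7 (6.21-fold, 1.04 to 27.2). Nr2f2 and Nr2f1, which hold atrial fate, were at 0.830-fold (0.611 to 1.10) and at 2 counts against 100, Dkk3 was at 0.816-fold and Tbx5 at 1.10-fold (0.537 to 2.03).

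The ventricular list was at 10.6-fold the reference (9.77 to 11.5) through Pln and Myl3, which held 585 and 317 of its 968 counts. Both passed the count minimum only through the cardiac-type spots, so no count of the list is given. Pln is made in atrium as well as ventricle. Without Pln the list was 4.26-fold higher (3.79 to 4.78). Myl3, the ventricular essential light chain, ranged from 0 to 12.9 counts per 10000 with a median of 4.34, and 44 spots had it. The defining ventricular light chain Myl2 had 0 counts against 1, and the ventricular factor Irx4 0 in both groups. The beta myosin heavy chain gene Myh7 was near the reference at 1.19-fold (0.882 to 1.57) and had 54 counts beside the 7467 of its near-identical neighbor Myh6, so that a few shared reads could alter it. Irx3 and Irx5 had 6 and 2 counts against 447 and 141 (0.195-fold, 0.0710 to 0.427, and 0.206-fold, 0.0247 to 0.757). Hey2 had 4 counts against 37 (1.57-fold, 0.406 to 4.36).

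Of the pacemaker and conduction list, 0 of 3 tested genes were higher and 1 lower, against 6.41% and 17.2% over all genes. With 3 genes this count cannot be told apart from those shares. The sum of the list was 0.737-fold the reference (0.584 to 0.917). The pacemaker channel gene Hcn4 had 1 count against 11 (1.32-fold, 0.0306 to 9.07). Tbx3, which holds the conduction fate and is also made elsewhere in lung, was lower (0.301-fold, 0.183 to 0.468), and Tbx18 and Isl1 had 0 counts against 3 and 1. Shox2, a factor of the sinus node and of pulmonary vein muscle, had 8 counts in 8 spots and 0 in the reference, at least 38.7-fold higher. Cacna1g, a T-type calcium channel gene, had 5 counts against 4 (18.1-fold, 3.90 to 91.3), and Rgs6, which damps the acetylcholine response, 19 against 85 (3.24-fold, 1.86 to 5.38). Cacna1d, Gjc1 and Vsnl1 had 6, 11 and 12 counts against 126, 218 and 227, with intervals that held a ratio of 1, Cacna1h had 0 against 6, Cntn2 1 against 0, and Gjd3 0 in both.

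**Figure D2:**
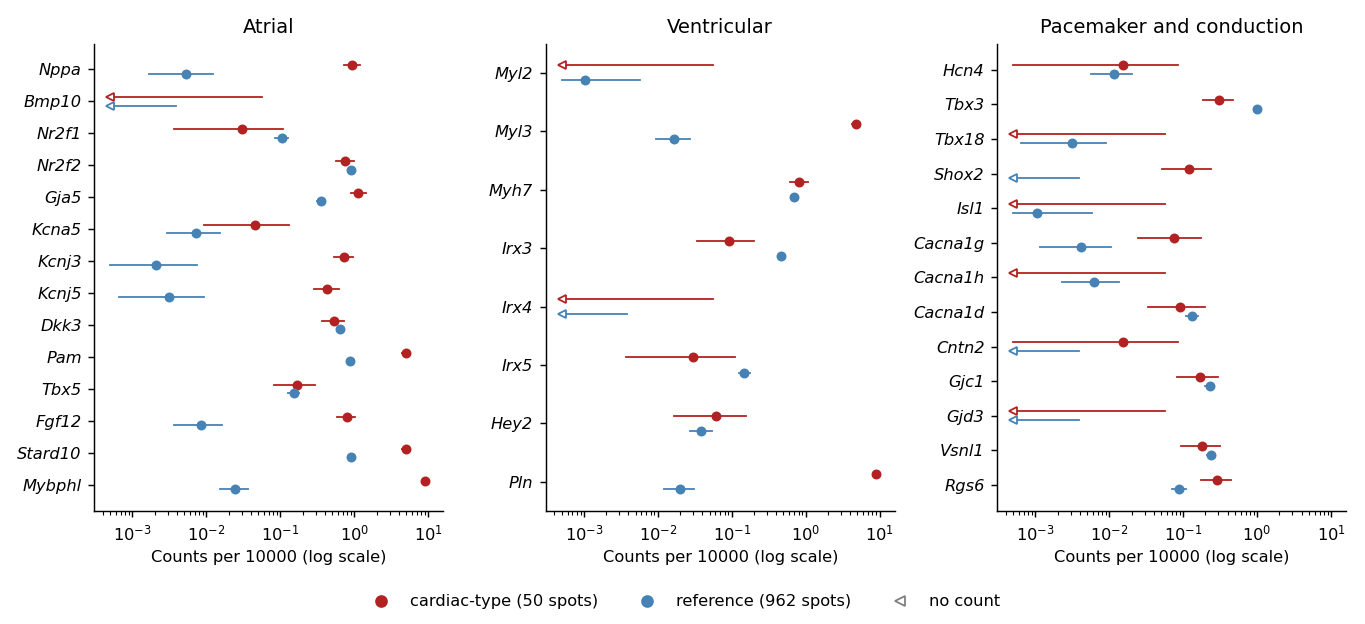
Level of genes of the atrial, ventricular and pacemaker lists in counts per 10000 (log scale), in the 50 cardiac-type spots (red) and the 962 reference spots (blue), with 95% Poisson intervals as lines and open triangles for groups with no count. Mybphl, Pln, Myl3, Kcnj3 and Fgf12 stand apart between the groups, whereas Myl2, Irx4 and Bmp10 have no count in the cardiac-type spots and Hcn4 overlaps.

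Cardiac transcription factors were at low counts, and 0 of the 3 that passed the minimum were 2-fold higher, against 6.41% over all genes. With 3 genes this count cannot be told apart from that share. Nkx2-5, which specifies cardiac fate, had 34 counts in 24 spots against 1 count in the reference, Tbx20 16 against 1, Hand2 9 against 1 and Gata4 12 against 5. Mef2a and Mef2c were 1.36-fold (1.02 to 1.79) and 1.84-fold (1.13 to 2.88). Ppargc1a, a coactivator of mitochondrial genes, had 12 counts against 19 (9.16-fold, 4.05 to 19.9).

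Skeletal muscle was checked as the other striated muscle. The fast myosin genes Myh1, Myh2 and Myh4 had 0 counts in both groups, and 8 of the 12 listed genes, among them Tnnc2, Mylpf, Actn3, Pvalb and Myf6, had 0 counts in the cardiac-type spots. Casq1, the skeletal calcium store, held 60 of the list's 73 counts and was 22.9-fold higher (15 to 35.3). Without it the list was 1.32-fold the reference (0.685 to 2.33).

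Mitochondrial genes were higher in the cardiac-type spots across the nuclear and mitochondrial genomes. Nuclear genes of oxidative phosphorylation summed to 838 against 159 counts per 10000 (5.28-fold, 5.22 to 5.33). Of these 76 genes 73 were at least 2-fold higher and 0 lower, against 6.41% and 17.2% over all genes. In sum the 76 took 8.38% of all counts against 1.59%. By complex, 35 of 36 genes of complex I (NADH dehydrogenase) were higher and the sum was 4.45-fold, 4 of 4 of complex II (3.95-fold), 9 of 9 of complex III (5.27-fold), 11 of 13 of complex IV, cytochrome c oxidase (6.32-fold, 3 of the 11 passing only through the cardiac-type spots), and 14 of 14 of complex V, the ATP synthase (5.42-fold). The 5 sums lay within 3.95 to 6.32, and the exceptions were Ndufc2 (1.96-fold, 1.68 to 2.27), Cox8a and Cox6a1. Fewer cells of a type in a spot and less RNA per cell cannot be told apart here.

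The mitochondrially encoded genes were at 599 against 80.3 counts per 10000 (7.46-fold, 7.37 to 7.55). Of these, 10 of 10 that passed the minimum were higher, against 6.41% over all genes, between 3.50-fold for mt-Nd5 and 8.90-fold for mt-Co3. The mitochondrially encoded genes took 5.99% of all counts against 0.803%. mt-Co3 ranged from 54.9 to 335 across the spots with a median of 125, and it had counts in all 50.

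Muscle-type isoforms of mitochondrial proteins stood far above their ubiquitous partners in ratio. Heart and skeletal muscle replace some subunits of cytochrome c oxidase by tissue-specific forms. Cox6a2, Cox7a1 and Cox8b were 332-fold (274 to 406), 210-fold (172 to 259) and 160-fold (128 to 203) higher, and each had counts in all 50 spots. Their partners Cox6a1, Cox7a2 and Cox8a were 1.09-fold (0.967 to 1.23), 3.59-fold (3.32 to 3.87) and 1.53-fold (1.39 to 1.68). The same held for the creatine kinases, Ckmt2 at 445-fold and Ckmt1 with 6 counts against 133, and for the ATP carriers, Slc25a4 at 18.1-fold (17.0 to 19.3) and Slc25a5 at 1.14-fold (0.963 to 1.34). In each of these 5 pairs the interval of the muscle form lay above that of its partner. Of the 5 muscle forms, 4 passed the count minimum only through the cardiac-type spots, so these had to differ.

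Fuel use was read from lists of breakdown and synthesis. Over all genes 6.41% were at least 2-fold higher and 17.2% lower. All 12 tested genes of the tricarboxylic acid cycle were higher (4.01-fold summed, 3.84 to 4.18), and the lowest was Dlst at 2.18-fold. Of the fatty acid oxidation list, 15 of 16 tested genes were higher and 0 lower (4.71-fold, 4.56 to 4.86). Fabp3, the fatty acid carrier of heart, was at 12.1 to 52.6 counts per 10000 across the spots (median 31.5) and 128-fold the reference (112 to 146), and without it the list was 2.77-fold (2.66 to 2.88). Cpt1b, the muscle form of the enzyme that lets fatty acids into mitochondria, was 35.6-fold higher (25.1 to 51.3), and Lpl, which frees them from lipoproteins, 9.49-fold (7.96 to 11.3). The exception was the fatty acid uptake gene Cd36 at 0.594-fold (0.527 to 0.667), a gene also made by capillary endothelium and macrophages.

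Fatty acid and glycerolipid synthesis moved little in sum (1.42-fold, 1.33 to 1.53). Of 10 tested genes 3 were at least 2-fold higher and 0 lower, against 6.41% and 17.2% over all genes. Of the 3, 1 passed only through the cardiac-type spots. The 3 were Fasn, the fatty acid synthase (2.06-fold, 1.81 to 2.34), the phosphatidate phosphatase gene Lpin1 (2.60-fold, 1.83 to 3.63) and Dgat2, which makes triglyceride (7.42-fold, 5.65 to 9.68). Of the 274 counts of Fasn, 135 were in patch 2. Gpam, which starts glycerolipid synthesis, was at 0.604-fold (0.440 to 0.811). The desaturase gene Scd1 was at 1.26-fold and the citrate lyase gene Acly at 0.681-fold (0.508 to 0.894). In sugar and phosphagen metabolism 10 of 13 tested genes were higher, 5 of them passing only through the cardiac-type spots (5.43-fold, 5.27 to 5.59), led by the muscle forms Pgam2, Ckm (235-fold) and Eno3 (40.9-fold), whereas Ckb, Ldha and Pkm stayed between 1.47-fold and 1.97-fold.

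**Figure D3:**
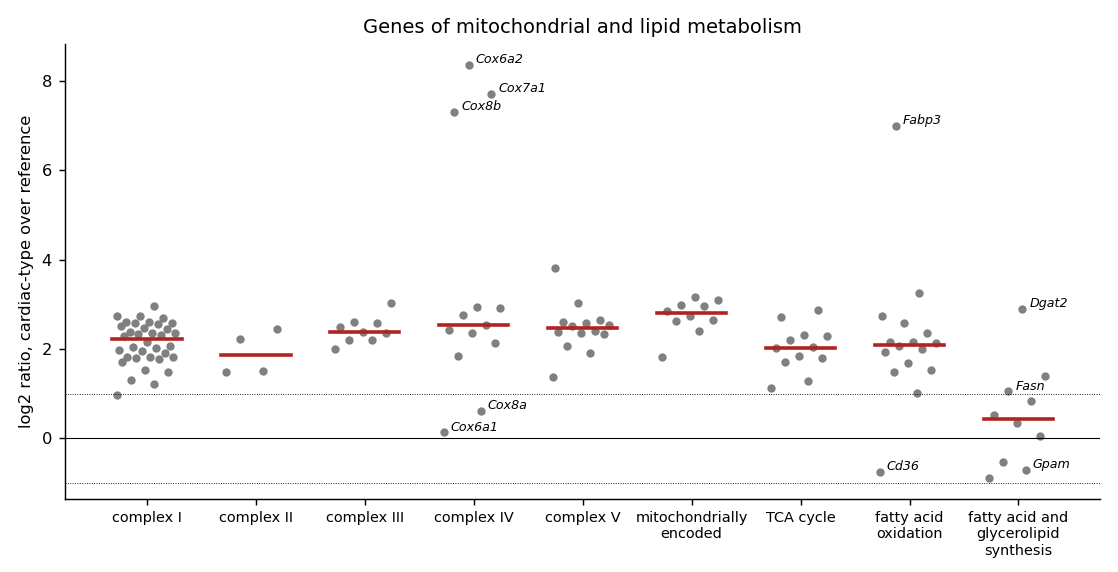
Log2 ratio of cardiac-type over reference spots for each gene that passed 200 counts, by list, with red bars at list medians and dotted lines at a 2-fold difference. The nuclear complexes, the mitochondrially encoded genes, the tricarboxylic acid (TCA) cycle and fatty acid oxidation lie mostly above 1, Cox6a2, Cox7a1, Cox8b and Fabp3 stand far above, and the synthesis list lies around 0.

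Vein endothelium was examined because the cardiac sleeve lies in vein walls. The vein list was at 15.8 against 5.85 counts per 10000 (2.70-fold, 2.52 to 2.88). Of its 6 tested genes 3 were higher and 1 lower, against 6.41% and 17.2% over all genes. Vwf, the clotting factor carrier of larger vessels, ranged from 0 to 33.7 across the spots with a median of 6.45, had counts in 47 of them, and was 4.07-fold higher (3.69 to 4.49). Cpe was 8.09-fold higher (6.92 to 9.45) and Prss23 3.78-fold (3.01 to 4.73). The other vein genes did not follow: Nr2f2 and Ephb4 were at 0.830-fold and 0.890-fold, Car8 at 0.445-fold (0.277 to 0.679), and Ackr1 had 0 counts against 7. Slc6a2, Amigo2, Vegfc and Bst1 had 8 to 16 counts each.

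Against the 50 reference spots richest in smooth muscle genes, chosen by that list alone, the vein list was 1.22-fold (1.11 to 1.35), Vwf 1.304-fold (1.13 to 1.51) and Cpe 1.13-fold (0.929 to 1.38). Prss23 was 3.81-fold higher there too (2.34 to 6.50). In that comparison 188 of 732 tested genes (25.7%) were at least 2-fold higher in the cardiac-type spots and 39 (5.33%) lower. The sarcomere list was still 12.3-fold and nuclear oxidative phosphorylation 4.60-fold higher, with 68 of 71 tested genes.

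Markers of other vessels and of lung tissue were mostly level or lower. Over all genes, 17.2% were at least 2-fold lower, 6.41% were higher and the median log2 ratio was -0.35. The artery list was at 0.626-fold (0.554 to 0.704), with 6 of 9 tested genes at least 2-fold lower, Sox17 and Hey1 among them, and only Gja5, shared with atrial muscle, higher. The capillary list was at 0.473-fold with 5 of 9 lower, AT1 cells (gas exchange) at 0.487-fold with 4 of 6 lower, AT2 cells (surfactant) at 0.670-fold with 3 of 8 lower, and conducting airway at 0.155-fold with 4 of 6 lower. Sftpc, the surfactant protein C of AT2 cells, was still at 155 counts per 10000 with counts in all 50 spots. Red blood cell genes were at 0.521-fold and macrophage genes at 1.24-fold. Smooth muscle genes were at 1.19-fold (1.10 to 1.28), and at 0.185-fold (0.171 to 0.201) of the smooth-muscle-rich spots. Among 8 tested, Mylk was lower and Synpo2 higher, and Synpo2 passed the count minimum only through the cardiac-type spots. Nerve and glia genes had 9 counts in all, with 6 of 9 genes at 0, and the 5 cartilage genes were at 0. These ratios depend on the reference. Against the 427 spots more than 1000 µm from any cardiac-type spot, conducting airway was at 0.601-fold and smooth muscle at 2.32-fold (2.12 to 2.54). In the same comparison AT2 was at 0.550-fold and artery at 0.538-fold.

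Genes of adventitial fibroblasts and fat were higher in sum, and those of elastic fibres were not. Adventitial fibroblast genes were 1.84-fold higher (1.79 to 1.89). Of 10 tested genes 5 were at least 2-fold higher and 0 lower, against 6.41% and 17.2% over all genes. Dcn (4.68-fold) and Pi16 (3.80-fold) were among the 5. The matrix gene Fbln1 was 5.61-fold higher (4.94 to 6.36) and the microfibril gene Mfap4 0.414-fold. The elastic fibre list, in which Fbln1 had the most counts, was at 0.877-fold (0.820 to 0.937), with 1 of 7 tested genes higher and 1 lower. Without Fbln1 it was at 0.584-fold (0.537 to 0.635). The adipocyte list was 11.9-fold higher (10.6 to 13.5), with 363 of its 481 counts from Cfd, also called adipsin, 79 from Car3 and 19 from the fat hormone gene Adipoq, while Lep and Ucp1 were at 0. The median spot had 1.21 counts of Cfd per 10000 and the highest 66.4. In the lymphatic list (1.74-fold) Ccl21a, the chemokine of lymphatic vessels, was the 1 gene of 4 tested at least 2-fold higher (3.29-fold, 2.98 to 3.63), and 1 was lower. Ccl21a held 495 of the list's 628 counts, and without it the list was at 0.630-fold (0.526 to 0.750). Below the count minimum Prox1 had 9 counts against 6. The part of these cells in the muscle and mitochondrial values was not tested.

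With distance from the patches, muscle levels declined within 1 or 2 spot spacings (each ring is named by its outer limit). The chosen genes were at 557 counts per 10000 in the cardiac-type spots, 90.1 in the 122 spots at 100 µm, 14.9 at 200 µm, 8.62 at 300 µm, 3.18 from there to 500 µm, 4.54 from 500 to 1000 µm and 2.87 beyond 1000 µm, so the decline was not steady past 500 µm. Nuclear oxidative phosphorylation went from 838 to 291, 190 and 183 over the first rings and to 157 beyond 1000 µm. Vwf went from 7.88 to 2.55 at 100 µm and 1.66 at 200 µm, and was 2.29 beyond 1000 µm. Since the rule kept the highest spots in the middle, the decline of muscle genes is partly set by it.

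Fat genes had a wider reach. The adipocyte list was at 7.29 counts per 10000 in the cardiac-type spots, 10.3 at 100 µm, 6.01 at 200 µm, 2.59 at 300 µm and 0.0792 beyond 1000 µm, with 21 counts in the 427 spots of the last ring. Its highest level was thus next to the cardiac-type spots. Fibroblast genes went from 81.2 through 69.1 at 100 µm to 40.2 beyond 1000 µm, and smooth muscle genes peaked at 300 µm with 12.7.

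**Figure D4:**
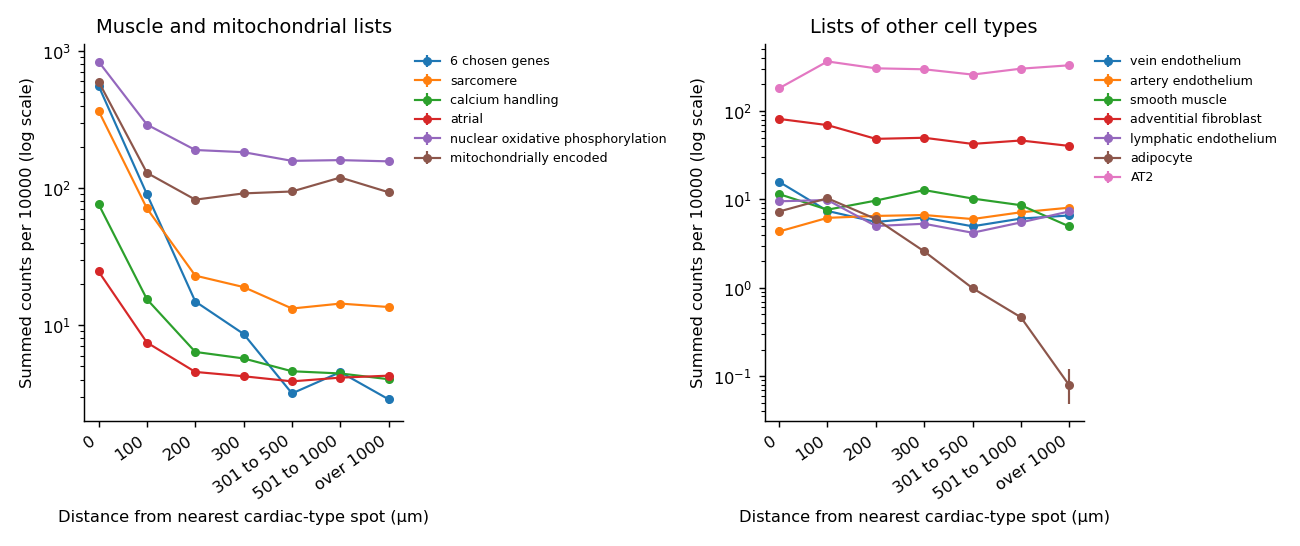
Summed level of gene lists (counts per 10000, log scale, 95% Poisson intervals) against distance to the nearest cardiac-type spot, in µm, with 0 for the 50 spots themselves. Muscle and mitochondrial lists (left) drop over the first 200 µm, and among other lists (right) the adipocyte list declines from 100 µm on, to 0.0792.

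Among the 8 patches of at least 3 spots, contractile genes were even and several other genes were not. Over 384 genes the median coefficient of variation across patches was 29.3%, which includes counting error. Tnnt2 lay between 37.7 and 56.1 counts per 10000 and Mybphl between 6.87 and 10.8. Sln was at 82.5 (78.1 to 87.0) and 84.1 (79.1 to 89.4) in patches 1 and 2 and at 25.7 (21.7 to 30.2) in patch 3, and Mb at 39.7 and 39.8 in patches 1 and 8 and 8.28 in patch 3. These 2 helped to choose the spots, yet their order among patches differed from that of Tnnt2.

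Genes outside the chosen set differed as well. Hamp was at 18.5 (16.5 to 20.7) in patch 1 and 4.58 (2.99 to 6.71) in patch 3, with counts in every patch. Myl3 was at 1.12 (0.615 to 1.89) in patch 2 and 10.8 (7.90 to 14.3) in patch 5. Nppa was at 3.04 (2.26 to 4.01) in patch 1 and 2.53 (1.09 to 4.98) in patch 8, had 0 counts in patches 3, 5 and 7 and in the 8 lone spots, 2 counts in patch 2, and 1 each in patches 4 and 6.

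Among the 384 genes, a set that left out Nppa, the widest spread belonged to genes of other tissue. Bpifb1, an airway secretory gene, had 39 of 52 counts in patch 2. Cfd was at 18.0 (15.7 to 20.5) in patch 2 and 12.4 (9.01 to 16.5) in patch 4 and at 0 in patches 3 and 7, and Ccl21a was at 39.3 (33.2 to 46.1) in patch 7 and 0.632 in patch 8. Vwf was between 1.90 in patch 8 and 9.15 in patch 5 and reached 12.2 in the lone spots. mt-Co3 was between 108 in patch 2 and 218 in patch 1, and Scgb1a1 between 60.7 in patch 4 and 574 in patch 2. A relation between the 2 was not tested.

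**Figure D5:**
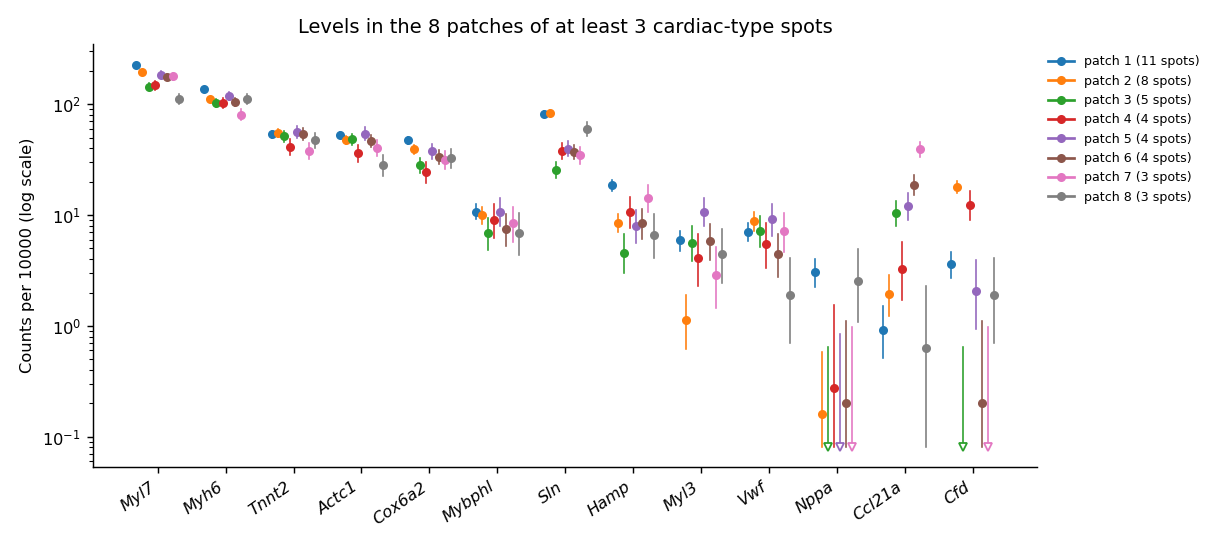
Level of 13 genes in each of the 8 patches of at least 3 cardiac-type spots (counts per 10000, log scale, 95% Poisson intervals, open triangles for 0 counts). Tnnt2, Actc1 and Mybphl stay within narrow ranges, while Myl3, Nppa, Ccl21a and Cfd differ between patches.

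The metastatic section held no comparable spot. It had 101 counts of the 6 chosen genes, at most 2 in any spot and at most 3.05 counts per 10000, and all 1104 of its spots with at least 1000 counts met the rule for the reference. Myl4 held 88 of the 101 counts, and Sln, Mb and Pln had 0. Actc1 had 549 counts and Cox6a2 127, at 0.375 and 0.0866 counts per 10000. With 1 section of each condition, the plane of the section and the condition cannot be told apart.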

How the data were processed

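Visium counts of 1 control and 1 metastatic lung section were analyzed. The deposited values are unnormalized counts of unique molecules, for which the submitters' processing notes name Space Ranger 1.3.1 and mm10. The labels gave each section's group. The 2 sections shared 858 spot barcodes, which name array positions and not cells. The members and gene lists were chosen with earlier results of these data known.

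Counts were summed over spots and scaled to counts per 10000. Levels have exact 95% Poisson intervals, and ratios the exact Clopper-Pearson interval of the split of counts. Log2 ratios used a pseudocount of 0.5 counts. Genes with at least 200 counts over both groups were compared, without the 6 chosen genes, and called higher or lower at a 2-fold ratio. A gene at 0 was bounded by a floor of 3 counts over the group. With 1 section per condition no p-value was computed. The procedure was tested on simulated data.

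Genes named were the chosen genes, all genes of the atrial, ventricular, pacemaker, sarcomere, calcium, natriuretic peptide and muscle isoform lists, the 15 highest and 10 lowest log2 ratios of the same direction in every patch of at least 5 spots, and up to 4 genes with the most counts of each other list. Further genes were named after their values were seen, and some genes that the rule names are not reported here. Of 405 listed genes 404 were found, and Aldoa is the sum of its features. Distances used a spot spacing of 100 µm. Smooth-muscle-rich spots were the 50 reference spots highest in the smooth muscle list. Promoters came from the RefSeq table on GRCm38.p6, which held 27025 genes and 5 of the 6 chosen ones. The alternatives took 25 or 100 spots, another reference, library size, summing, depth, filter or pseudocount, or left out the largest patch. Python 3.11.15, numpy 2.4.6, scipy 1.17.1, pandas 2.3.3 and matplotlib 3.10.9 were used.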

Additional observations from a re-analysis of the deposited data

How the results depend on the processing

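The alternatives were run on 2 counts of genes, 4 list ratios and the share of touching spots, and the 4 ratios stayed above 1 in each. The count of genes at least 2-fold higher, 449, became 86 with every spot thinned to 1000 counts, where 712 genes could be compared, 864 with a minimum of 50 counts and 4454 with a minimum of 1. The count of genes at least 2-fold lower, 1202, became 1911 with 25 spots, 391 with 100 spots, 565 with reference spots at 0 counts of the chosen genes, 168 with thinned spots, 2274 and 3002 with minimums of 50 and 1, and 479 with a pseudocount of 5. The median log2 ratio of all genes was -0.35 as reported, -0.51 with the library size without abundant genes or with each spot weighted equally, -0.17 with 100 spots and -0.09 with a pseudocount of 5. With the other library size 387 genes were higher and 1649 lower, and with equal weights 404 and 1678.

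The ratio of the atrial list, 6.17, became 7.03 and 4.83 with 25 and 100 spots, 5.50 with the other library size, 5.21 with equal weights, 5.59 without the largest patch and 5.67 with thinned spots. That of the ventricular list, 10.6, became 11.7 and 8.24 with 25 and 100 spots, 9.47 with the other library size, 8.68 with equal weights, 11.7 with thinned spots and 9.67 with a reference more than 500 µm away, an alternative chosen after seeing the data. Nuclear oxidative phosphorylation, 5.28, became 5.99 and 4.30 with 25 and 100 spots, 5.39 with reference spots at 0 counts, 4.70 with the other library size, 4.93 with equal weights, 4.97 without the largest patch and 4.93 with thinned spots. The vein list, 2.70, became 2.51 and 2.47 with 25 and 100 spots, 2.41 with the other library size, 2.23 with equal weights and 2.26 with thinned spots. The share of spots touching another, 84%, became 64% with 25 and 99% with 100 spots.

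No paired analysis was possible because each condition had 1 section and no test was made. The values describe 1 section of 1 lung: intervals leave out differences between sections and mice, spots mix cell types, and the histology image was not used here, so vessels were not identified.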
